A study of Mus musculus with 12 samples.

Results

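Toll-like receptors (TLRs) are membrane proteins with which cells of the innate immune system recognise molecules of microbes. Their genes Tlr1, Tlr2, Tlr4, Tlr5, Tlr6, Tlr7, Tlr8, Tlr9 and Tlr13 and the adaptor gene Myd88 are described here. They were found by gene symbol in the normalized count tables, which hold 10 of 10 of them in both tissues, out of 53801 genes counted in all. The libraries are total RNA-seq of colon and whole blood from wild-type C57BL/6 male mice, which were 8 weeks old when obtained, in a model of ulcerative colitis (UC). Mice labelled UC drank 1.5% dextran sulfate sodium (DSS), a sugar polymer that injures the gut lining, for 7 days, and mice labelled control drank water without it over the same time. All were killed on day 8. The study chose 6 of 10 mice by their disease activity index, a score of weight loss, stool and bleeding, and both tissues were taken from the same mice. The 12 libraries form 4 groups of 3: UC colon and UC blood of mice 1, 2 and 4, and control colon and control blood of mice 7, 8 and 9.

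Each receptor binds its ligand with an outer horseshoe of leucine-rich repeats and signals through an inner TIR domain. Tlr1, Tlr2, Tlr4, Tlr5 and Tlr6 lie at the cell surface and sense bacterial lipoproteins, lipopolysaccharide and flagellin. Tlr7, Tlr8, Tlr9 and Tlr13 lie in endosomes and sense nucleic acids. The adaptor protein Myd88 binds the TIR domain and recruits IRAK kinases, from which the signal runs through TRAF6 to NF-kB and to the transcription of inflammatory cytokines. In the gut, these genes are expressed by myeloid cells, lymphocytes and the epithelium, and TLR signals act both in inflammation and in repair of the mucosa.

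The start sites of 8 of the members were found in the RefSeq promoter table (GRCm38.p6), with none for Tlr4 and Tlr7. Windows of 250 bases before a start are shown for 4 of them because these genes differ in where they were expressed: Tlr1 had the highest level in the colon, Tlr8 and Tlr9 are endosomal receptors called lower in colon than in blood, and Myd88 is the shared adaptor. The call of Tlr9 lay near the threshold and was lost under several settings, and its sign changed when only the library size was used for scaling. The Myd88 start is that of RefSeq and lies inside the gene as GENCODE draws it. The strand shown is that of the gene, and capitals mark matches to the motifs searched.
Tlr1, chr5:64933559-64933808, minus strand: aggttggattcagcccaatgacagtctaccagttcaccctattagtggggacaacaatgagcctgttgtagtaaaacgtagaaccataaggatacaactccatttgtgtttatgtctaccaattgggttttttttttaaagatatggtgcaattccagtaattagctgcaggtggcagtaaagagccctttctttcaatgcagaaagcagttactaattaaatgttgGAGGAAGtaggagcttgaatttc
Tlr8, chrX:167264330-167264579, minus strand: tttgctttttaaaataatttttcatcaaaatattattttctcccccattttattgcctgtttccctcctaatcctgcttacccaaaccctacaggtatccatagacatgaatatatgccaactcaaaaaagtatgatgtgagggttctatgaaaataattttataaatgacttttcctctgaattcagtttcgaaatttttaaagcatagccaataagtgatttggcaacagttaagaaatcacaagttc
Tlr9, chr9:106222348-106222597, plus strand: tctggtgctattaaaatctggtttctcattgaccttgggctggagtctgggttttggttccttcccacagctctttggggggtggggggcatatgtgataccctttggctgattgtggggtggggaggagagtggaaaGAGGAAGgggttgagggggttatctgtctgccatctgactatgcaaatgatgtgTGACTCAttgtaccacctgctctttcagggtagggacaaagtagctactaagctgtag
Myd88, chr9:119340019-119340268, minus strand: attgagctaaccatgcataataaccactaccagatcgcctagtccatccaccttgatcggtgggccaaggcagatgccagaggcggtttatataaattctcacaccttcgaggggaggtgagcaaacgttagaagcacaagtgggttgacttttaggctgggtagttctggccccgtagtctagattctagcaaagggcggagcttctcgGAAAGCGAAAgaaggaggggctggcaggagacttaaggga
The motifs were searched on both strands. The 8 members have 10 windows, since Tlr1 and Tlr6 each have another start, whose window held no match (for Tlr1 at chr5:64932700-64932949). A member was counted where any of its windows matched, whereas the shares over all are per window. The PU.1 motif GAGGAAG, named for a myeloid transcription factor, was in windows of 3 of the 8 members (Tlr1, Tlr9 and Tlr13) and in 10.6% of all 32851 promoter windows of this length. The interferon response motif (GAAA, any 2 bases, GAAA) was in windows of 2 members (Myd88, at positions -40 to -31 from the start, and Tlr6) and in 2.98% of all. The AP-1 motif TGANTCA was in 1 member (Tlr9) and in 6.75% of all, and the NF-kB motif (GGG, any 2 bases, TTTCC) in 0 members and in 1.41% of all. A match is a string of letters and not a measured binding site.

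Total counts ranged from 69181049 to 103662306 in colon libraries and from 80867247 to 142536804 in blood libraries. The 7SL RNA genes took 4.9% to 6.5% of counts in the colon and 35.9% to 65.4% in the blood. The tissue given in the characteristics was used, since 4 of 4 red cell genes were higher in every blood library and 8 of 8 colon epithelium genes in every colon library, whereas a second label field names the opposite tissue. The disease labels are less plain. S100a8, a neutrophil calprotectin subunit, had normalized counts of 5370, 33.1 and 22.3 in colon of mice 1, 2 and 4 labelled UC, and of 1888, 75.6 and 13337 in mice 7, 8 and 9 labelled control. In blood it was likewise highest in mice 1, 7 and 9, at 88578, 37179 and 101913 against 8642 to 14299 in the others. Whether the labels of some mice are exchanged cannot be told from these files. The study reported that the first principal component set its disease mice apart from its controls in both tissues. It also named Tlr2 among the genes changed in both. With the labels as given, edgeR called 1 of 22238 genes in colon and 0 of 16759 in blood, and DESeq2 called 6 in each. Values by label are therefore not to be read as a lack of an effect of DSS. The labelled groups were kept, every UC to control value holds for the labels as given, and the value of each mouse is shown.

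**Figure D1:**
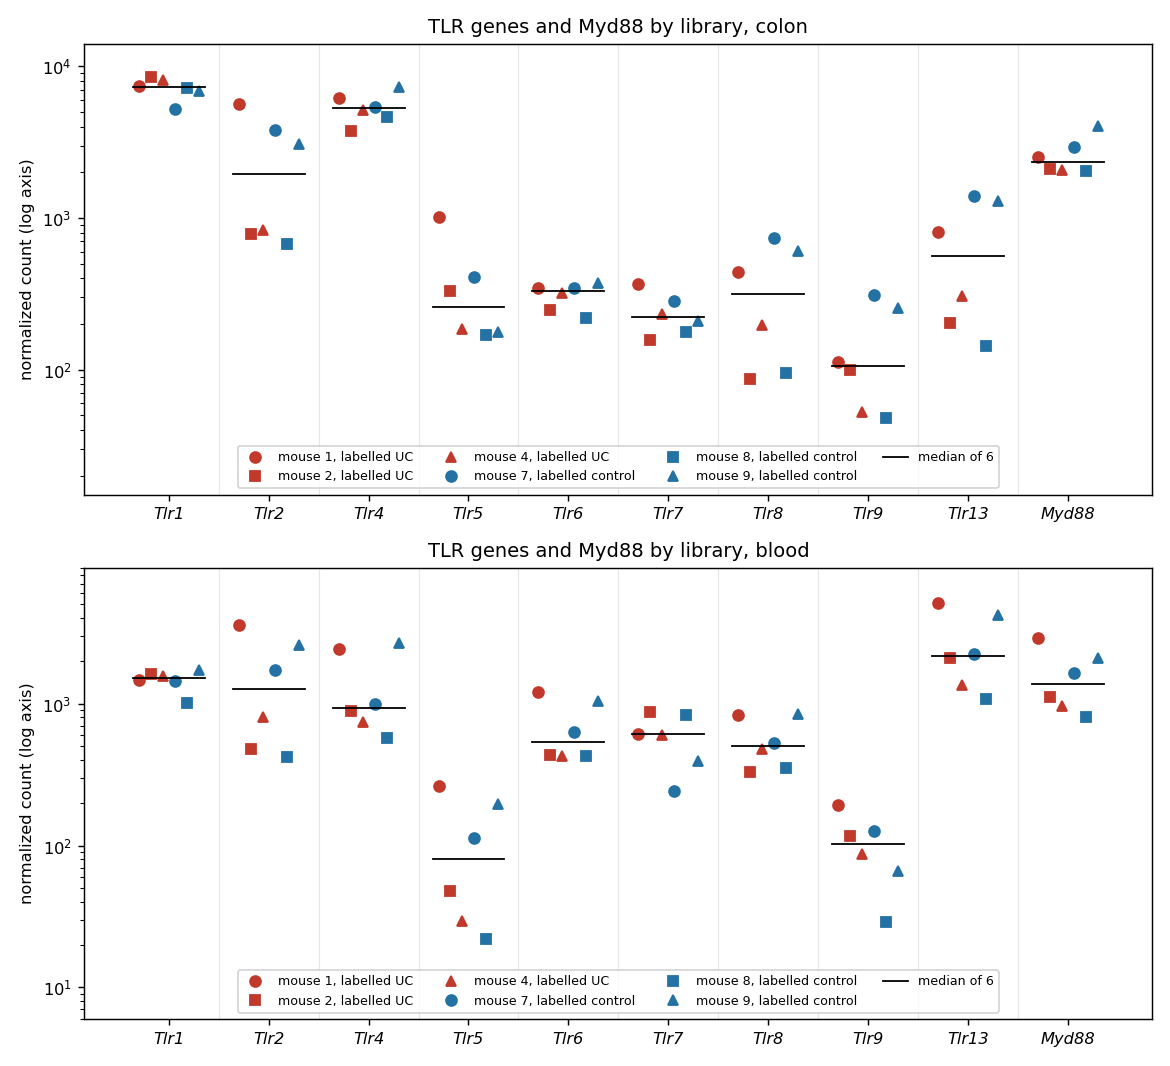
Normalized counts (log axis) of the 10 genes in the 6 colon libraries (top) and the 6 blood libraries (bottom), one point per library, red for labelled UC and blue for labelled control, with the median as a line. Tlr2 spread over 8.34-fold in the colon and 8.4-fold in the blood with mice 1, 7 and 9 on top, whereas Tlr1 spread over 1.62-fold and 1.73-fold.

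The surface receptor Tlr2 (chromosome 3, 83836272 to 83841767, GRCm38), which senses bacterial lipoproteins, differed widely between mice in both tissues. Its normalized count in colon was 5633, 787 and 828 in mice 1, 2 and 4 labelled UC, and 3805, 676 and 3080 in mice 7, 8 and 9 labelled control. In blood it was 3561, 476 and 808 in the mice labelled UC, and 1714, 424 and 2583 in mice labelled control. Mice 1, 7 and 9 were high in both tissues and the labelled groups overlapped. The UC to control difference was -0.07 ± 0.94 (log2FC ± SE, edgeR, n = 3 and 3) in colon and 0.04 ± 0.82 in blood, with adjusted p-values of 0.9999 and 0.9998. In colon it was -1.65 without mouse 1 and 0.37 without mouse 7, so that its sign rested on single mice.

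Tlr1 and Tlr6 are the partners with which Tlr2 forms heterodimers, and both varied less than Tlr2 across the colon libraries. Tlr1 (chromosome 5, 64924679 to 64933563) in colon was 7386, 8434 and 8119 in mice 1, 2 and 4 labelled UC, and 5216, 7197 and 6852 in mice 7, 8 and 9 labelled control. All of its colon values in mice labelled UC lay above those in mice labelled control, with means of 7980 ± 538 and 6422 ± 1058 (SD, n = 3). The difference was 0.30 ± 0.18 (log2FC ± SE) and did not pass edgeR's test, with an adjusted p of 0.9999 and an unadjusted p of 0.1382. Tlr1 was thus the only 1 of the 10 members whose labelled groups did not overlap in colon, where 5.59% of all 22123 genes with a mean of at least 10 had groups that did not overlap. In blood, where that share was 6.5% of genes and 0 of the 10 members, Tlr1 was 1467, 1620 and 1574 in mice labelled UC, and 1446, 1008 and 1739 in mice labelled control.

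Tlr6, which lies beside Tlr1 on chromosome 5 (64952031 to 64960097), was 346, 248 and 318 in colon of mice labelled UC, and 348, 221 and 374 in mice labelled control. Its blood values were 1212, 432 and 430 in mice labelled UC, and 634, 426 and 1046 in mice labelled control. Mice 1, 7 and 9 held its 3 highest values in each tissue, within a narrow 1.7-fold range in colon and a 2.84-fold range in blood. Some 15.4% of the 50-base words of Tlr1 transcripts and 12.3% of those of Tlr6 also occur in other genes, and 454 of these words are shared between the pair. A further 59 of the Tlr1 words occur in other genes but not in Tlr6, and 306 genes besides Tlr6 share words with Tlr1. Counts of such stretches could have been divided among these genes. The high level of Tlr1 and the low level of Tlr6 in colon are uncertain to that extent.

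Tlr4 (chromosome 4, 66827584 to 66930284), the receptor for lipopolysaccharide, was among the most abundant members in colon. It was 6141, 3766 and 5144 in mice 1, 2 and 4 labelled UC, and 5419, 4596 and 7292 in mice 7, 8 and 9 labelled control. Its blood values were 2416, 881 and 738 in mice labelled UC, and 989, 570 and 2671 in mice labelled control. Mice 1 and 9 stood above the other mice in blood, whereas in colon the values ran together within 1.94-fold. Neither tissue showed a difference by label beyond the spread, at -0.21 ± 0.25 in colon and -0.07 ± 0.63 in blood (log2FC ± SE, n = 3 and 3).

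Tlr5 (chromosome 1, 182954788 to 182976044), the flagellin receptor, had one colon library far above the rest. It was 1014, 329 and 185 in colon of mice labelled UC, and 408, 169 and 178 in mice labelled control. Its colon log2FC of 1.00 ± 0.71 (adjusted p = 0.9999, edgeR) fell to 0.02 without mouse 1. In blood it was 263, 48.2 and 29.5 in mice labelled UC, and 113, 21.8 and 196 in mice labelled control. The blood values span 12.1-fold, the widest range of the 10 members in that tissue, with mice 1, 7 and 9 highest.

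Among the endosomal receptors, Tlr13 (chromosome X, 106143204 to 106160493), which senses bacterial ribosomal RNA, had the widest range in colon, at 9.73-fold. Its colon values were 811, 204 and 306 in mice 1, 2 and 4 labelled UC, and 1399, 144 and 1297 in mice 7, 8 and 9 labelled control. In blood they were 5155, 2097 and 1357 in mice labelled UC, and 2219, 1074 and 4222 in mice labelled control. Mice 1, 7 and 9 were highest in both tissues, although in blood mouse 7 stood hardly above mouse 2. The log2FC by label was -1.11 ± 0.88 in colon and 0.20 ± 0.59 in blood, and neither passed the test.

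Tlr7 and Tlr8 are neighbouring genes on chromosome X (167304929 to 167330558 and 167242696 to 167264329) of the RNA-sensing branch, yet their values took different courses. Tlr8 in colon was 438, 86.2 and 197 in mice labelled UC, and 739, 94.5 and 609 in mice labelled control. In blood Tlr8 was 828, 328 and 477 in mice labelled UC, and 531, 349 and 840 in mice labelled control. It thus had mice 1, 7 and 9 on top in both tissues. Tlr7 in colon was 369, 157 and 231 in mice labelled UC, and 283, 176 and 211 in mice labelled control. In blood Tlr7 was 611, 878 and 602 in mice labelled UC, and 242, 834 and 396 in mice labelled control. Mice 2 and 8, which were low for most other members in blood, were the highest for Tlr7, and mouse 7 was the lowest. Per kilobase of exon, the ratio of Tlr8 to Tlr7 in blood was 1.54, 2.5 and 2.42 in mice 1, 7 and 9 and 0.426, 0.902 and 0.477 in mice 2, 4 and 8. In colon the ratio ran from 0.61 in mouse 8 to 3.29 in mouse 9.

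Tlr9 (chromosome 9, 106222598 to 106226883), the receptor for unmethylated CpG DNA, was the lowest member in colon. It was 112, 100 and 52.8 in colon of mice labelled UC, and 311, 47.9 and 256 in mice labelled control. In blood it was 193, 117 and 86.7 in mice labelled UC, and 127, 28.7 and 66.2 in mice labelled control. Mice 7 and 9 stood apart in colon, whereas in blood mice 1, 7 and 2 held its highest values. Its difference by label was -1.23 ± 0.70 in colon and 0.82 ± 0.55 in blood (log2FC ± SE), and the difference of both, at -2.06 ± 1.00, had an unadjusted p of 0.06397 and an adjusted p of 1 in edgeR's interaction test over all 12 libraries.

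The adaptor Myd88 (chromosome 9, 119335934 to 119341411) varied little in colon, where it was 2536, 2105 and 2063 in mice labelled UC, and 2919, 2039 and 4014 in mice labelled control. In blood it was 2912, 1111 and 966 in mice labelled UC, and 1631, 804 and 2107 in mice labelled control. Mice 1, 7 and 9 were highest in both tissues, over a range of 1.97-fold in colon and 3.62-fold in blood. Myd88 shares 290 exonic bases with Acaa1a, a peroxisomal thiolase gene on the opposite strand, and the StringTie settings given in the methods name no library strand. Normalized counts of Acaa1a ran from 4218 to 6003 in colon, and in blood from 799 to 1621 with mice 1, 7 and 9 highest as well. Its part in the Myd88 values was not tested.

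None of the members passed the test between labelled groups. A gene was called where edgeR's adjusted p was at most 0.05 and the absolute log2FC over 1. In colon 0 of 10 members were called, where 0.0045% of all 22238 genes tested (1 gene) were, and 0 of 10 had an unadjusted p under 0.05, where 1.41% of all did. In blood 0 of 10 were called, where 0% of all 16759 genes were, and again 0 of 10 had an unadjusted p under 0.05, against 1.44% of all. DESeq2 called 0 members in either tissue. The effect of UC was not called different between tissues for any member (0 of 10, where 0.0043% of all 23258 genes tested passed the same limit on the adjusted p). The median log2FC of the members was -0.14 in colon and 0.09 in blood, against -0.01 and 0.04 over all genes. The values by label ran from -1.23 to 1.00 with standard errors of up to 0.94.

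**Figure D2:**
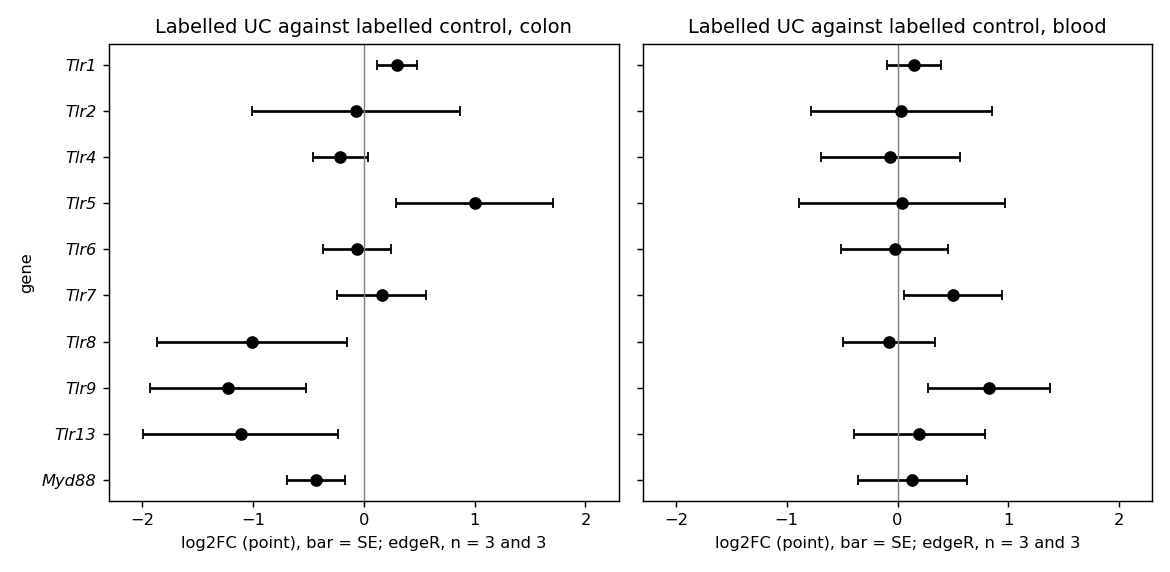
Log2FC between labelled UC and labelled control (point) with its standard error (bar) for each member in colon (left) and blood (right), from edgeR with 3 libraries per group. Values run from -1.23 (Tlr9) to 1.00 (Tlr5) in colon and from -0.08 (Tlr8) to 0.82 (Tlr9) in blood, and 0 of 10 passed the test in each.

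Across libraries the median member varied more than the median gene. The range from the lowest to the highest library had a median of 1.91 for members and 1.15 for all genes in colon (log2 of normalized count plus 1), and of 2.04 and 1.16 in blood. In colon the ranges of Tlr1, Tlr6, Tlr4 and Myd88 were 0.693, 0.76, 0.953 and 0.977, below that of the median gene. The range of Tlr1 in blood, at 0.787, was also below it. Mice 1, 7 and 9 held the 3 highest values of 7 of 10 members in colon, where 18.3% of all genes had this order, and of 7 of 10 in blood, where 11.8% of 16370 genes did. The exceptions were Tlr1, Tlr5 and Tlr7 in colon, and Tlr1, Tlr7 and Tlr9 in blood. The neutrophil markers include S100a8, which first showed this order, and S100a9, so their sums are no independent measure of it. Neutrophil marker genes moved with this order: their summed normalized count in blood was 452934, 152515 and 352266 in mice 1, 7 and 9 and 39176 to 51898 in mice 2, 4 and 8, with 8 of 8 markers highest in mice 1, 7 and 9. In colon it was 33952, 26129 and 65251 in mice 1, 7 and 9 and 7446 to 17736 in the others. Most of the colon sum in mice 2, 4 and 8 was Ly6g, and the other 7 markers summed to 12458, 5305 and 39772 in mice 1, 7 and 9 and to 95.8, 144 and 281 in mice 2, 4 and 8. By label these sums ranged from 7446 to 33952 (UC) and 17736 to 65251 (control) in colon, and from 47210 to 452934 (UC) and 39176 to 352266 (control) in blood.

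Monocyte and macrophage markers had the same order in colon, at 35298, 43709 and 48690 in mice 1, 7 and 9 against 13546 to 19865, or 15286 to 35298 by the UC label and 13546 to 48690 by the control label. In blood their sum ranged from 69582 to 102096 with mouse 4 highest, and was mostly Lyz2. The other 7 summed to 12079, 12044 and 8896 in mice 1, 7 and 9 and to 8554, 9776 and 6153 in mice 2, 4 and 8. Of these 7, only 2 (Csf1r and Cd68) had their highest blood values in mice 1, 7 and 9. T cell markers in colon had this order too, at 961, 1392 and 1305 in mice 1, 7 and 9 against 214 to 332. In blood their sum ran from 4029 to 5574, with mice 2, 4 and 9 highest. B cell markers in colon summed to 183, 1315 and 2565 in mice labelled UC, and to 3198, 308 and 3517 in mice labelled control, an order that matched that of colon Tlr9 in mice 7 and 9 but not in mice 1 and 4. In blood they were highest in mice 2, 4 and 7 and ran from 17724 to 33628. Of 4 plasmacytoid dendritic cell markers, which belong to a cell known for Tlr7 and Tlr9, the sum in blood lay between 405 and 626, and Cox6a2 was at 0 in every blood library. Of 5 genes of the epididymis, Defb37 was at 789 and 517 in colon of mice 1 and 7 and at 0 in the others, Crisp1 was at 0 in mice 1, 7 and 9 and at 16.5 to 59.2 in the others, and 3 were at 0 in every colon library. The part of these cells in the TLR values was not tested, and in bulk samples fewer cells of a type and less RNA per cell cannot be told apart.

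Levels were compared between genes as normalized counts per kilobase of exon. In colon Tlr1 was highest, with a median of 2179, and its 6 libraries lay above those of Tlr4, the next at 950.5. Myd88 followed at 900.7 and Tlr2 at 648.3, and from Tlr4 downwards the ranges of neighbours in the order overlapped. Tlr13, Tlr6, Tlr8, Tlr7, Tlr5 and Tlr9 had medians from 129.7 down to 30.5. In blood the order began with Myd88 at 532.2, Tlr13 at 501.4, Tlr1 at 454.4 and Tlr2 at 418.4, which overlapped widely. Tlr4, Tlr7, Tlr6 and Tlr8 lay between 168.3 and 140.5. Only the step from Tlr8 down to Tlr9 (29.4) separated neighbours without overlap, and Tlr5 was lowest at 16.8.

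**Figure D3:**
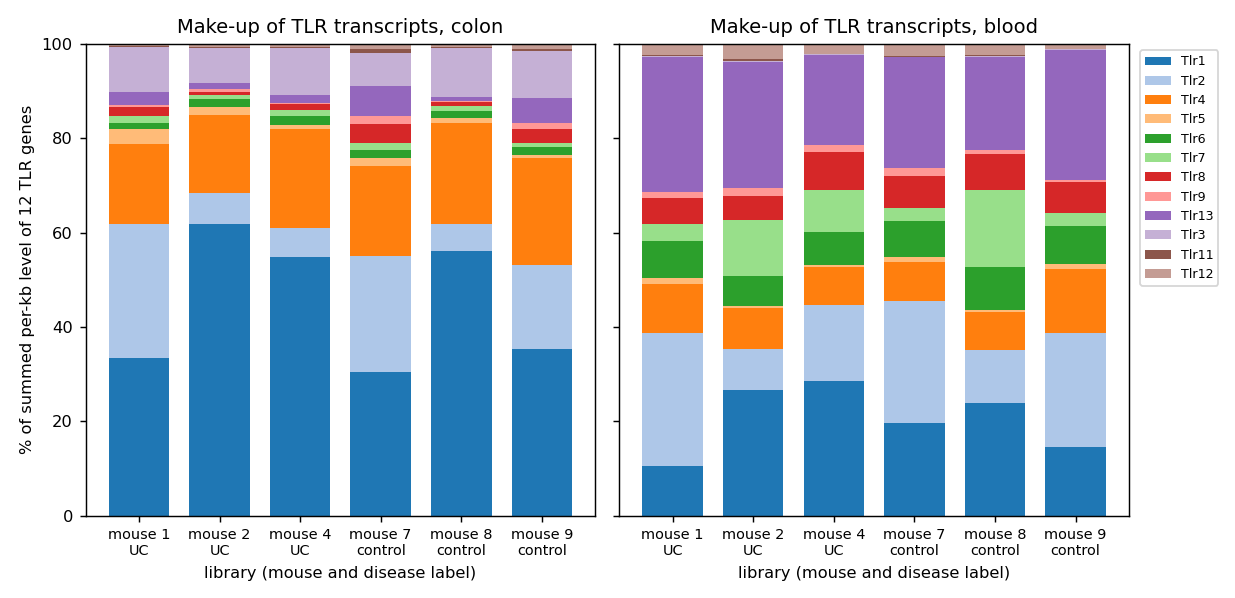
Share of each of 12 TLR genes in their summed level per kilobase of exon (in %), one bar per library, colon left and blood right. Tlr1 takes 30.4% to 61.9% of a colon bar and 10.5% to 28.5% of a blood bar, and Tlr13 takes 0.87% to 6.35% and 19.1% to 28.6%.

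As a share of the level of 12 TLR genes, the make-up of the receptors differed between mice as well as tissues. In colon Tlr1 made up 61.9%, 54.8% and 56% in mice 2, 4 and 8 and 33.5%, 30.4% and 35.4% in mice 1, 7 and 9. Tlr2 took the opposite course, with 5.84% to 6.41% in mice 2, 4 and 8 and 17.7% to 28.4% in mice 1, 7 and 9. The share of Tlr4 in colon was steady, between 16.6% and 22.7%. In blood Tlr2 made up 8.66% to 16.2% in mice 2, 4 and 8 and 24.2% to 28.2% in mice 1, 7 and 9. Tlr7 there was 8.93% to 16.3% in mice 2, 4 and 8 and 2.7% to 3.58% in mice 1, 7 and 9. Shares sum to a whole, so a higher share of one gene lowers those of the others.

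In all, 6 members were lower in colon than in blood, in a comparison of the 6 colon with the 6 blood libraries on the raw counts. Of all 23258 genes tested, 20.8% were called lower in colon and 37.7% higher. The median log2FC was -1.18 over the members and 0.46 over all genes. Tlr13 differed most, with a log2FC of -3.76 ± 0.65 (SE, adjusted p = 0.000364, edgeR), followed by Tlr7 at -2.99 ± 0.33 (adjusted p = 1.379e-05, edgeR) and Tlr6 at -2.88 ± 0.34 (adjusted p = 2.264e-05, edgeR). Tlr8 was lower by -2.42 ± 0.54 (adjusted p = 0.00204, edgeR). Each of these 4 remained called when any one mouse was left out, with adjusted p-values of at most 0.0122. Tlr9 and Myd88 lay near the threshold. Tlr9, at -1.27 ± 0.50 (adjusted p = 0.0405, edgeR), lost its call without mouse 1, 2, 4, 7 or 9, at log2FC values from -1.40 to -1.16. Myd88, at -1.01 ± 0.33 (adjusted p = 0.0172, edgeR), lost it without mouse 1, 7, 8 or 9, at values from -0.98 to -0.71.

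The other 4 members were not called. Tlr1 was higher in colon by 0.57 ± 0.15 (adjusted p = 0.00643, edgeR), which is under the fold threshold. Tlr2 was at -1.08 ± 0.72 (adjusted p = 0.201), Tlr4 at 0.25 ± 0.40 and Tlr5 at -0.03 ± 0.68. With the mouse as a block, since both tissues came from the same mice, Tlr2 at -1.12 passed the test (adjusted p = 0.00144, edgeR) and Myd88 at -0.89 no longer passed the fold threshold. These directions depend on the scaling. The median over all genes tested was 0.46 with TMM factors and 2.57 when only the library size was used, and on the latter scale Tlr2, Tlr5, Tlr9 and Myd88 changed sign and only Tlr13 remained called lower in colon (-1.68). That scale called 4 members higher and 1 lower in colon, against 0 and 6 with TMM, and over all genes 17887 higher and 1757 lower, against 8759 and 4845. A change of scaling shifts all genes by nearly the same amount, and subtracting the median of all genes takes that out. Values relative to the median gene were therefore bound to lie close and are no test of the scaling. Tlr13 was at -4.22 with TMM and -4.25 with library size only, Tlr7 at -3.45 and -3.38, Tlr2 at -1.54 and -1.57, Myd88 at -1.47 and -1.47, and Tlr1 at 0.11 and 0.08. The colon and blood libraries were depleted with different kits (ribosomal RNA alone, and ribosomal with globin RNA), and tissue and kit cannot be told apart.

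**Figure D4:**
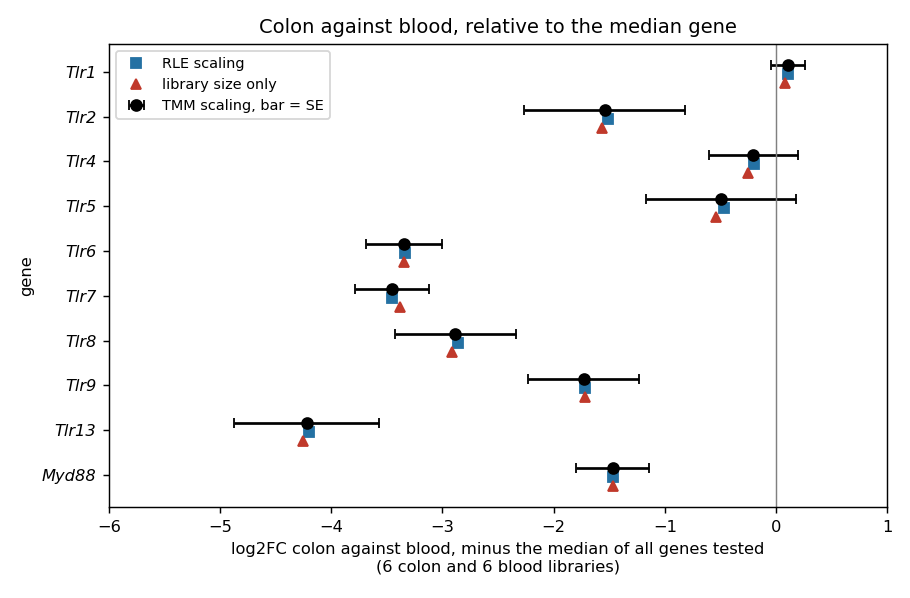
Log2FC of colon against blood minus the median of all 23258 genes tested, for each member, with TMM scaling (circle, bar is the standard error), RLE scaling (square) and library size only (triangle), over 6 colon and 6 blood libraries. Tlr1 lies at 0.11 under TMM and each other member below 0. Subtracting the median takes out most of a change of scaling, so the closeness of the symbols is no test of it. Without subtraction of the median, 4 members change sign with library size only.

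The TLR genes outside the set were read in the same way. Tlr3, an endosomal receptor for double-stranded RNA that signals without Myd88, was higher in colon by 5.27 ± 0.35 (adjusted p = 2.851e-07, edgeR), with raw counts from 1481 to 3423 in colon and from 11 to 42 in blood. An antisense gene that shares 381 exonic bases with it, Gm45542, had at most 7.2 normalized counts. Tlr12 was lower in colon by -2.31 ± 0.37 (adjusted p = 0.000215, edgeR), a call it lost with library size only (-0.16). Tlr11 was not called at 0.84 ± 0.55, and its raw counts were low, from 27 to 104 in colon and from 3 to 26 in blood.

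Genes of the TLR pathway were grouped by role, and none of 54 was called between labelled groups in colon, nor any of those tested in blood. Of these, 2 of 16 kinases and ubiquitin ligases had an unadjusted p under 0.05 in colon and 1 of 4 adaptors (Ticam1) in blood, by edgeR. Over all genes tested, 1.41% in colon and 1.44% in blood had such a p. Each of the 10 target genes had a negative log2FC in colon, with a median of -1.90 against -0.01 over all genes, and the lowest unadjusted p was 0.06162. In the same comparison 51% of all genes had a negative value, as had 8 of 8 neutrophil markers (median -2.29), 8 of 8 monocyte and macrophage markers (-0.60) and 6 of 6 B cell markers (-0.82). So had 7 of 8 colon epithelium, 4 of 5 T cell, 2 of 3 plasmacytoid dendritic cell and 2 of 4 red cell markers tested. For platelet, squamous epithelium and smooth muscle markers it was 1 of 3, 1 of 4 and 0 of 4, and for the epididymis 1 of 1. Between tissues, 37.7% of all 23258 genes tested were called higher in colon and 20.8% lower, and no list was tested against these shares. Of 9 co-receptors and chaperones, 2 were called higher in colon and 3 lower, or 3 and 3 with the mouse as a block. With the block, 8255 of all 23258 genes were called higher and 4634 lower. Lbp, which carries lipopolysaccharide, was higher by 4.25 ± 0.74 (adjusted p = 0.000387, edgeR), and Cd36, a scavenger receptor that helps Tlr2 with Tlr6, lower by -5.63 ± 0.29 (adjusted p = 6.127e-08, edgeR). In colon Lbp was 1810, 378 and 380 in mice labelled UC, and 3341, 413 and 4542 in mice labelled control, again highest in mice 9, 7 and 1. Cd14, the lipopolysaccharide co-receptor of Tlr4, was 2900, 1783 and 1934 in colon of mice labelled UC, and 3812, 1214 and 9494 in mice labelled control.

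Of 5 other TIR adaptors, 1 was called higher in colon and 2 lower. The shares over all genes, for each list in this comparison, were 37.7% higher and 20.8% lower. Ticam1, the adaptor of Tlr3, was higher by 3.38 ± 0.27 (adjusted p = 1.102e-06, edgeR), and Pik3ap1 lower by -3.22 ± 0.39 (adjusted p = 2.752e-05, edgeR). Of 16 kinases and ubiquitin ligases, 1 was called higher (Ube2n, 1.12 ± 0.22, adjusted p = 0.000812, edgeR, and 0.93 without mouse 9, under the fold threshold) and 5 lower, led by Tab3, a subunit of the TAK1 complex, at -3.06 ± 0.27. Of 7 transcription factors, Rela, an NF-kB subunit, was higher by 1.17 ± 0.22, and 3 were lower, led by Irf5 at -2.70 ± 0.34. With library size only, 0 of the kinases and 0 of the transcription factors were called lower, and 13 and 4 were called higher. Over all 23258 genes, 17887 were called higher on that scale and 1757 lower.

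Of 7 inhibitors, 0 were called higher in colon and 3 lower, against 37.7% and 20.8% of all genes. Irak3, which holds back IRAK signalling in macrophages, was lower by -2.04 ± 0.32 (adjusted p = 0.000181, edgeR), and was at 0.07 with library size only. Its normalized counts in colon were 729, 221 and 382 in mice labelled UC, and 854, 360 and 894 in mice labelled control. In blood they were 910, 643 and 646 in mice labelled UC, and 682, 579 and 765 in mice labelled control. Mice 1, 7 and 9 thus held its highest values in both tissues, as for Tlr2 and Myd88. Socs1, which restrains cytokine signalling, ran from 107 to 1370 in colon with mice 1, 7 and 9 highest, and Tnfaip3, which encodes the deubiquitinase A20, from 3316 to 8204 with mouse 8 highest. Tollip, Nfkbia, Sigirr and Cyld spanned 4756 to 6030, 4364 to 10110, 1463 to 1901 and 3778 to 4809 in colon.

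Of 10 target genes of TLR signalling, 3 were called higher in colon and 1 lower, or 4 and 2 with the mouse as a block. Over all genes 37.7% were called higher and 20.8% lower without the block, and 8255 and 4634 of 23258 genes with it. Cxcl1, a neutrophil chemokine, was 914, 24.4 and 153 in colon of mice labelled UC, and 894, 122 and 4549 in mice labelled control, and was at 0 in 5 blood libraries and at 3.45 in the other. Il1b, which encodes the cytokine interleukin 1 beta, was lower in colon than in blood by -3.65 ± 1.33 (adjusted p = 0.0294, edgeR), and lost its call without mouse 2, 4 or 7, at values from -3.49 to -3.28. It was at -6.06 with the mouse as a block (adjusted p = 0.00599, edgeR), was not called at -1.53 with library size only, and had no adjusted p in DESeq2. Its normalized counts in colon were 4138, 125 and 20.6 in mice labelled UC, and 1361, 31.5 and 13430 in mice labelled control. The values of mice 1, 7 and 9 lay above those of the others in both tissues. The median log2FC of colon against blood was 3.19 over the target genes, -0.60 over the co-receptors and chaperones, 0.20 over the adaptors, -0.59 over the kinases and ubiquitin ligases, -0.86 over the transcription factors and -0.14 over the inhibitors.

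For each member the gene with the most similar course over the 6 libraries of a tissue was taken, by the root mean square (RMS) difference of centred log2 values. Among 17717 colon genes, that of Tlr1 was Rars2 (RMS 0.0449), of Myd88 Epb41l4a (0.0435), of Tlr6 Pomp (0.0614) and of Tlr4 Ero1l (0.0655). These 4 members varied little in colon, so that many genes lay close. Tlr2, with a wide range, was nearest to Nckap5 (0.155, where the median gene was at 1.29), Tlr8 to Trbc1, a T cell receptor constant gene (0.127), Tlr13 to C130050O18Rik (0.147), Tlr9 to Gm13889 (0.142), Tlr5 to the zinc transporter gene Slc39a8 (0.205) and Tlr7 to Zfp532 (0.101). Nckap5 was 1810, 282 and 307 in mice labelled UC, and 1328, 303 and 1249 in mice labelled control.

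Among 12682 blood genes, Tlr2 was nearest to Gm49339 (RMS 0.096, where the median gene was at 1.22). That gene was 1572, 253 and 414 in mice labelled UC, and 803, 218 and 1341 in mice labelled control, the same order of mice as Tlr2. Myd88 was nearest to Tbkbp1, which encodes a partner of the kinase TBK1 (0.0741), Tlr8 to Bnip3 (0.0786) and Tlr6 to Gm48591 (0.0965). Tlr4 was nearest to F630028O10Rik (0.148), Tlr13 to Megf9 (0.137), Tlr5 to Mtus1 (0.191) and Tlr9 to the taste receptor gene Tas1r3 (0.15). Tlr7 was nearest to Igsf3 (0.151) and Tlr1 to Trim68 (0.0656). No gene was the nearest of more than 1 member.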

How the data were processed

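Per the study's methods, the authors cleaned the reads of adapters and ribosomal sequence, aligned them to GRCm38 by STAR and obtained gene values from StringTie 1.3.4c (Ensembl annotation, default options). The deposited counts are whole numbers that the authors derived from transcript coverage. The deposited normalized tables hold a signal, the count divided by one factor per library (0.791 to 1.21 in colon, 0.664 to 1.31 in blood, for 100% of genes), set in each tissue separately. Coordinates and exon lengths are from GENCODE (GRCm38). Authors' fold changes were not used.

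edgeR 4.0.16 in R 4.3.3 was run on the counts (TMM, filterByExpr, glmQLFit, glmQLFTest, Benjamini-Hochberg adjustment) across all genes, each tissue alone, and over 12 libraries for the interaction and for colon against blood. SE is the absolute log2FC over the square root of F. DESeq2 1.42.0 and other settings were alternatives. The steps were tested on simulated counts with less spread than these data and no mouse effect. That test does not show the power of the fits here, where edgeR's biological coefficient of variation was 0.417 to 0.503. Replicates are mice. The titles give both tissues of a mouse the same number. Deviations of same-numbered libraries from their group means correlated by -0.0151 to 0.141 over 23258 genes. The main fits over 12 libraries held no term for the mouse, which was added as a block in an alternative. A low correlation over all genes does not hold for each member, and the block changed the calls of Tlr2 and Myd88 between tissues.

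Members and gene lists were chosen with earlier results of these data known, and motifs after the files were read. Named genes were the members, the other TLR genes, the leading called gene of each list and direction, the inhibitors, S100a8 and the nearest gene of each member with a mean of at least 50 normalized counts. Cd14, Acaa1a, Gm45542, Cox6a2 and single marker genes were named outside this rule, after their values were seen. Of 129 listed genes, 128 were found. The normalized tables order their columns as mice 1, 7, 9, 2, 4 and 8, which was used for nothing.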

Additional observations from a re-analysis of the deposited data

How the results depend on the processing

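Of the values by label, 102 of 110 alternatives in colon and 92 of 110 in blood kept their direction and the side of the threshold, and the others changed sign, each when 1 mouse was left out. The adjusted p stayed at or above 0.5403 in colon and 0.9803 in blood. Without 1 mouse, the colon log2FC ran from -1.65 to 0.37 for Tlr2, from -0.249 to 0.071 for Tlr6 and from -0.22 to 0.41 for Tlr7. With the sign kept, it ran from -1.90 to -0.70 for Tlr13, from -1.77 to -0.55 for Tlr8, from -1.69 to -0.78 for Tlr9, from -0.63 to -0.18 for Myd88, from -0.38 to -0.02 for Tlr4, from 0.17 to 0.40 for Tlr1 and from 0.02 to 1.54 for Tlr5. In blood it ran from -0.027 to 0.338 for Tlr1, from -1.28 to 0.59 for Tlr2, from -0.79 to 0.78 for Tlr4, from -1.51 to 0.75 for Tlr5, from -0.69 to 0.38 for Tlr6, from -0.50 to 0.30 for Tlr8, from -0.53 to 0.80 for Tlr13 and from -0.54 to 0.45 for Myd88. The number of members called by label was 0 under every alternative, with 0 to 3 at an unadjusted p under 0.05. The 3 were in colon without mouse 8, where 8.4% of 23122 genes had such a p, against 1.41% with all mice. For colon against blood, 6 members were called, 4 with RLE or with no filter on low counts, 5 with DESeq2, 6 with a mean of at least 10 counts, 6 with the replicate block and 4 to 5 without 1 mouse. Each of these calls was lower in colon. Over all genes 4845 of 23258 were called lower, 4647 with RLE, 4727 with DESeq2 and 4634 with the block. It was 5305 of 34109 with no filter, 4674 of 21596 with the mean filter and 4562 to 4859 without 1 mouse. Tlr9 lost its call with RLE (-1.20, adjusted p = 0.0519, edgeR) and with no filter (-1.16), and Myd88 fell under the fold threshold with RLE (-0.94), no filter (-0.90), DESeq2 (-0.94) and the block (-0.89). Tlr5, at -0.03, was at 0.048 with RLE, 0.076 with no filter, 0.05 with DESeq2, 0.28 with the block and from -0.29 to 0.42 without 1 mouse. With library size only, an alternative chosen after seeing the data, Tlr2 was at 1.00, Tlr5 at 2.03, Tlr9 at 0.85 and Myd88 at 1.10, on a scale whose median over all genes was 2.57 in place of 0.46, and 5 members were called. Among the members the block changed only the calls of Tlr2 and Myd88, and among the pathway genes it added calls in 2 lists, the co-receptors and the target genes. Every member had at least 19 counts in every library.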
